A study of Mus musculus with 18 samples.

Results

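The genes described here encode the subunits of the receptors for glutamate and for GABA, the main excitatory and the main inhibitory transmitter of the brain. They were chosen by gene symbol: the AMPA subunits Gria1 to Gria4, the delta subunits of the Grid series, the kainate subunits Grik1 to Grik5, the NMDA subunits of the Grin series, the metabotropic glutamate receptors of the Grm series, the GABA-A subunits (Gabra, Gabrb, Gabrd, Gabre, Gabrg, Gabrq and Gabrr) and the GABA-B subunits Gabbr1 and Gabbr2. Of the 25918 gene names in the deposited count table, 44 matched, namely 4 AMPA, 7 NMDA, 5 kainate, 2 delta, 7 metabotropic glutamate, 17 GABA-A and 2 GABA-B genes. Messenger RNA was sequenced from brain cortex of BALB/c mice in 3 groups of 3 libraries: controls, day 2 and day 6 of an ischemic injury. The harvested tissue held the ischemic and the peri-ischemic zone together. The labels used here state neither age, sex nor any procedure on the controls, and do not say whether a library is 1 animal, so a p-value measures only the spread between these libraries, which may be technical. The series also holds skull bone, which was not used here.

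Ionotropic glutamate receptors are cation channels built from several subunits. AMPA receptors carry most of the fast excitatory current, and NMDA receptors pair an obligatory Grin1 subunit with Grin2 or Grin3 subunits and admit calcium when glutamate binds to a depolarised cell. GABA-A receptors are chloride channels that combine alpha, beta and mostly gamma or delta subunits, whereas GABA-B receptors and metabotropic glutamate receptors signal through G proteins. In ischemia, glutamate that is released and not taken up can overload neurons with calcium through these channels, a process known as excitotoxicity.

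At day 2, 16 of the 38 subunit genes that could be tested were lower than in controls and none was higher. Among all genes tested, 9.99% were lower and 14.7% higher. Grin2c, an NMDA subunit, stood at 51.7% of its control mean, the AMPA subunit Gria3 at 63.8% and the NMDA subunit Grin2a at 62.8%. At day 6 Grin2c was at 100.4% and Gabbr2 at 94.3% of control, while Gabrb2 was at 44.5% and Gabra5 at 52.5%. The day 6 calls of Gabrb2 and Gabra5 were lost when certain single libraries were left out. In bulk tissue, fewer cells of a type and less RNA per cell cannot be told apart.

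Levels are CPM, that is counts scaled to a library total of 1000000 with edgeR's TMM factors, and are listed in the order of replicates 1, 2 and 3. A change is a log2 fold change given with the fitted standard error. A gene was called when the Benjamini-Hochberg adjusted p of edgeR's quasi-likelihood test, over all 18151 genes tested, was below 0.05. The controls were sequenced deepest: they held 23673255 to 27654269 counts, the day 2 libraries 17199036 to 18476057 and the day 6 libraries 13005050 to 22236424. Of the 44 genes, 38 passed the filter on low counts and 6 did not.

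Compared per length, the most abundant member in control cortex was the GABA-B subunit Gabbr1 with 96.6 ± 7.35 CPM per kilobase of exon (SD, n = 3). At lower levels came Gabbr2 (56.8 ± 5.93 CPM per kilobase), Gria2 (53.6 ± 2.22) and Gria1 (51.4 ± 9.44), which lay within their SD of each other. Within the other families Grin1 led the NMDA genes (29.2 CPM per kilobase), Grik5 the kainate genes (36.8), Grm5 the metabotropic genes (22.2) and Grid1 the delta genes (9.09). The order depends on the gene model: by the longest coding transcript instead of all exons, Grin1 moved from rank 12 to rank 4 among the 44 genes, whereas Gabbr1 kept rank 1. The 6 genes that failed the filter are known mainly from other sites, such as Gabra6 from cerebellar granule cells and Grm6 from the retina. Gabra6 had 16 reads in all 9 libraries together, Grm6 3, Gabrr3 14, Gabre 45, Grin3b 46 and Gabrr2 63.

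The 16 calls among 38 genes at day 2 compare with 24.7% of all genes tested called in either direction, 9.99% lower and 14.7% higher. The count of genes higher at an unadjusted p below 0.05 was also 0, and DESeq2 and limma voom called 22 and 20 of the 38 lower and none higher. The median log2 change of the 38 genes was -0.44, against 0.0004 for all genes tested. The estimate was negative for 36 of them, and in 17 all 3 day 2 libraries lay below all 3 controls, which held for 17.2% of all genes tested. The same 3 control libraries enter the comparison at day 6, where 4 of the 38 genes were lower and none was higher (none at an unadjusted p below 0.05, by DESeq2 or by limma voom). Of all genes tested, 10.3% were called at day 6, 2.39% lower and 7.93% higher. The median at day 6 was -0.27 for the 38 genes and -0.02 for all genes, and 18 had all day 6 libraries below the controls, as did 14.7% of all genes tested.

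**Figure D1:**
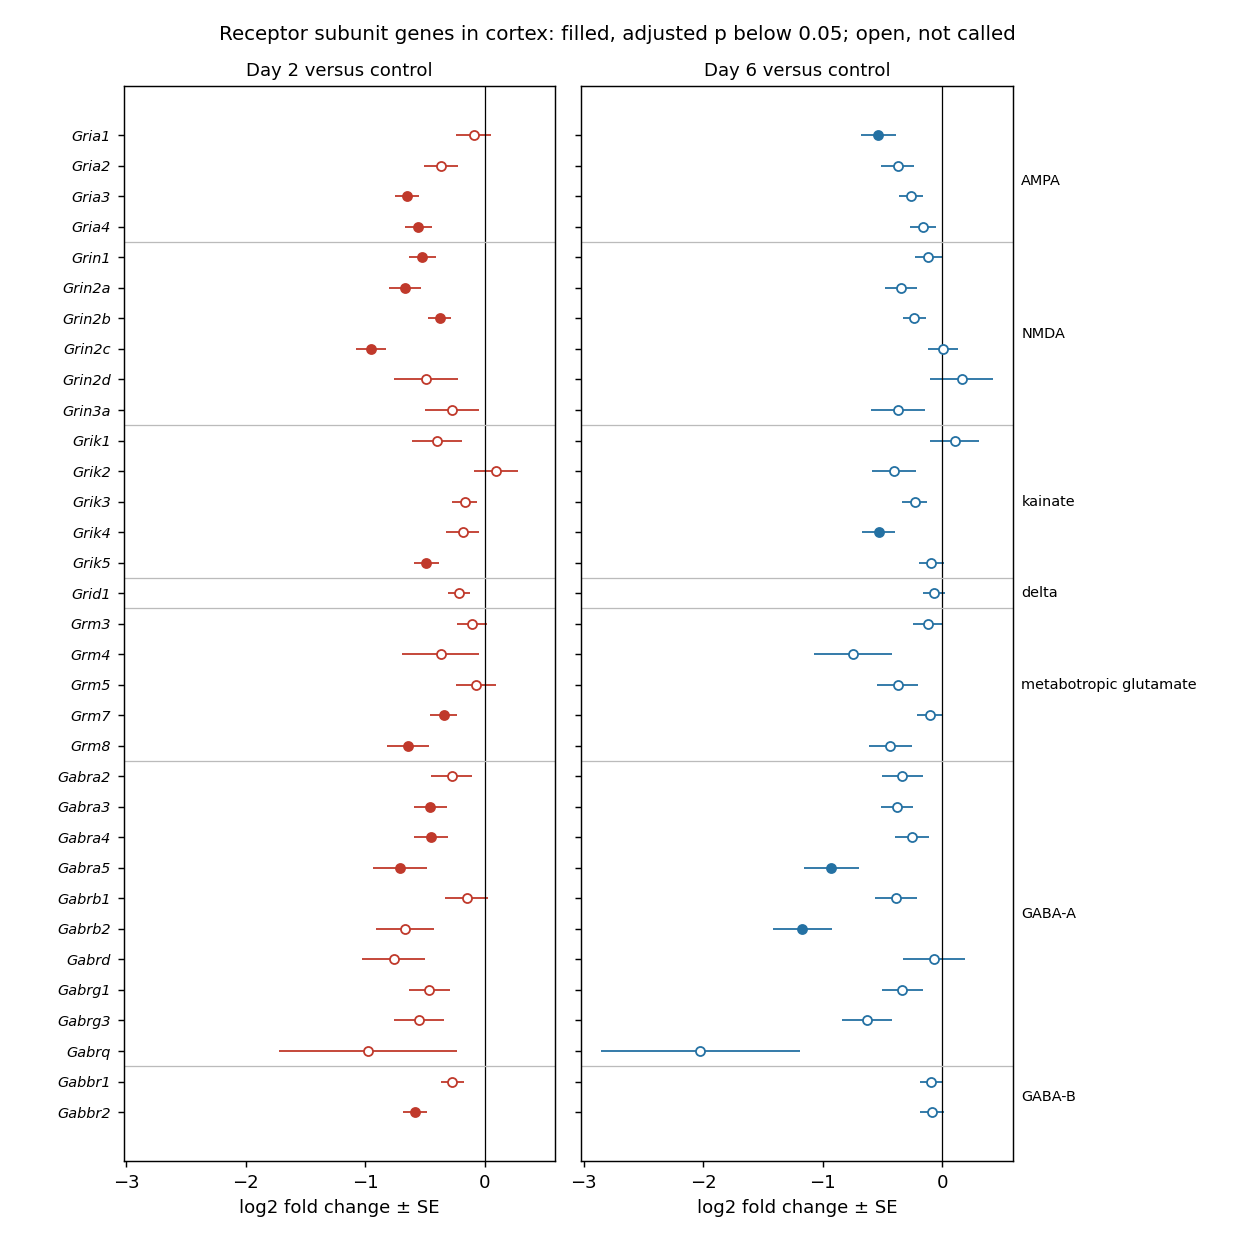
Log2 fold change ± SE (x axis) of 33 of the tested receptor subunit genes, by family, at day 2 (left) and day 6 (right) against the same controls. Filled points passed the test (13 at day 2 and 4 at day 6, each lower than control), and open points did not.

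Among AMPA subunits, Gria3 and Gria4 were lower at day 2. Gria3 stood at 316, 349.8 and 361 CPM in controls, 244, 193 and 218 at day 2 and 299, 270.2 and 286 at day 6 (chromosome X, 41400854 to 41678601). Each day 2 library was below each control, with a log2 change of -0.65 ± 0.10 (adjusted p = 3.89e-04), and each day 6 library was above each day 2 library (0.38 ± 0.10, adjusted p = 0.0254). Gria4, the subunit of fast AMPA receptors typical of parvalbumin interneurons, stood at 188, 176 and 214 CPM in controls, 146, 111 and 136 at day 2 and 172, 167 and 176 at day 6. It too was lower at day 2 with no overlap (-0.56 ± 0.11, adjusted p = 0.00219) and higher at day 6 than at day 2 (0.39 ± 0.11, adjusted p = 0.0346).

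Gria2, the subunit that makes AMPA receptors nearly impermeable to calcium when its messenger is edited, stood at 797, 838 and 865 CPM in controls, 799, 486 and 657 at day 2 and 663, 652 and 613 at day 6. Day 2 replicate 1 lay within the control range, and neither time passed the test (adjusted p = 0.0761 and 0.114). Without day 2 replicate 1, Gria2 was called at both times (adjusted p = 0.00459 and 0.0343), and DESeq2 called it at day 2 (0.0449). Gria1, which is added to synapses in plasticity, stood at 367, 312 and 253 CPM in controls, 349, 249 and 277 at day 2 and 230.3, 196 and 217 at day 6. Its day 2 libraries overlapped the controls (-0.09 ± 0.14, adjusted p = 0.707), while its day 6 libraries lay below all others (-0.54 ± 0.15 against control, adjusted p = 0.0329). The difference between the 2 times did not pass the test for Gria1 (-0.44 ± 0.15, adjusted p = 0.0681).

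NMDA subunits were called lower at day 2 in 4 of 6 tested genes, beside 9.99% of all genes tested, with a median log2 change of -0.51. Grin2c gives receptors with weak magnesium block and is also found in astrocytes. It stood at 49.4, 44.6 and 37.8 CPM in controls, 21.2, 26.1 and 20.8 at day 2 and 44.6, 43.1 and 44.7 at day 6 (chromosome 11, 115249169 to 115267243). The day 2 libraries were below every other library (-0.95 ± 0.12, adjusted p = 1.07e-04), and the day 6 libraries lay within the control range (0.01 ± 0.12 against control, adjusted p = 0.983, and 0.96 ± 0.13 against day 2, adjusted p = 4.89e-04). It had the smallest adjusted p of the 38 genes in both comparisons that involve day 2.

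Grin2a, the subunit that prevails in mature synapses, stood at 228, 310.0 and 320.3 CPM in controls, 200.2, 151 and 188 at day 2 and 236, 216 and 225 at day 6 (day 2 change -0.67 ± 0.13, adjusted p = 0.00228). Day 2 libraries lay below the controls, and the day 6 libraries lay between them except that replicate 1 exceeded control replicate 1. The obligatory subunit Grin1 stood at 257, 288 and 304 CPM in controls, 163, 213 and 214 at day 2 and 261, 249 and 273 at day 6. It was lower at day 2 (-0.52 ± 0.11, adjusted p = 0.0037) and higher at day 6 than at day 2 (0.41 ± 0.11, adjusted p = 0.0323). Of its exon bases, 13.5% are shared with the antisense gene Grin1os, and the sources used here do not say whether counting used strand. Grin2b, which prevails early in development, changed by -0.38 ± 0.10 at day 2 (adjusted p = 0.0101) and -0.23 ± 0.10 at day 6 (adjusted p = 0.147). Grin2d and Grin3a were not called at either time, with 12.3 ± 3.01 and 43.6 ± 11.3 CPM in controls.

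**Figure D2:**
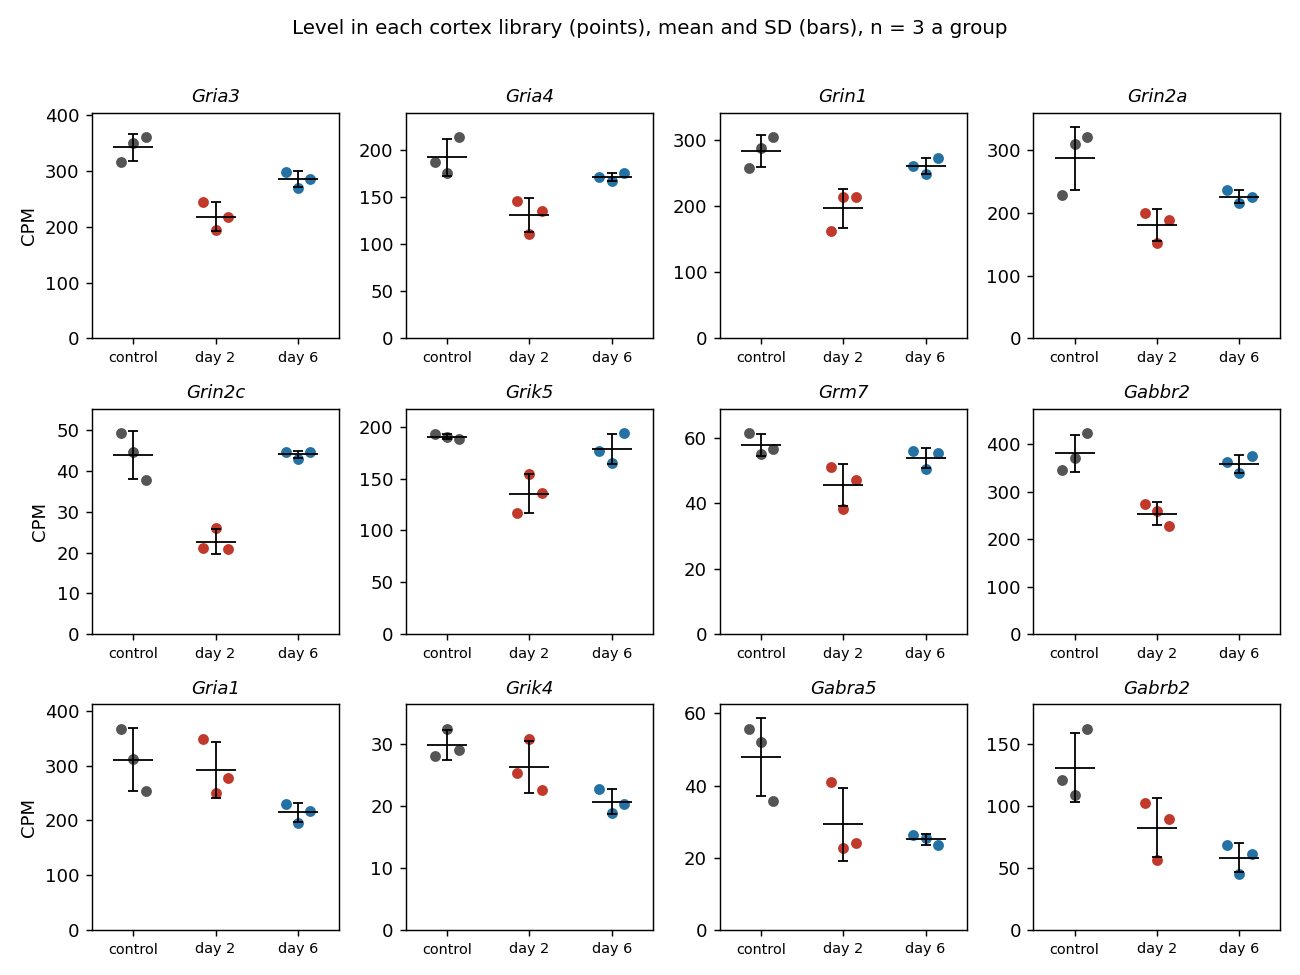
Level in CPM (y axis, from 0) of 12 called subunit genes in each of the 9 cortex libraries (points), with the mean and SD of each group (bars). Grin2c is lowest in the 3 day 2 libraries and back in the control range at day 6, while Gria1, Grik4, Gabra5 and Gabrb2 have their lowest mean at day 6.

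Of 5 kainate subunits, 1 was called lower than control at each time, beside 9.99% of all genes tested at day 2 and 2.39% at day 6. Grik5, an auxiliary high-affinity subunit that needs a partner such as Grik2 to form a channel, stood at 193, 190.1 and 188 CPM in controls, 117, 154 and 136 at day 2 and 177, 165 and 194 at day 6. Its day 2 libraries lay below all others (-0.49 ± 0.11, adjusted p = 0.00381), and it was higher at day 6 than at day 2 (0.40 ± 0.11, adjusted p = 0.0268). Grik4, the other subunit of the high-affinity type, stood at 28.1, 32.6 and 29.1 CPM in controls, 25.4, 30.9 and 22.6 at day 2 and 22.9, 18.9 and 20.4 at day 6. Here the day 2 libraries overlapped the controls (adjusted p = 0.374), and 2 of the 3 day 6 libraries lay below all others (day 6 change -0.53 ± 0.14, adjusted p = 0.0235). The channel-forming subunits Grik1, Grik2 and Grik3 were not called in any of the 3 comparisons. Grik2 had a positive estimate at day 2 (0.09 ± 0.18, adjusted p = 0.769).

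Delta subunits bind cerebellins and organise synapses. The delta gene Grid1 stood at 57, 52.2 and 53.4 CPM in controls, 46.7, 44.4 and 48.6 at day 2 and 48.8, 50.3 and 55.7 at day 6 and was not called (adjusted p = 0.104 at day 2).

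Of 6 tested metabotropic glutamate receptors, beside 9.99% of all genes tested, Grm7 and Grm8 were called lower at day 2. Both belong to the group that is coupled to inhibition of adenylyl cyclase and sits on presynaptic terminals. Grm8 stood at 16.6, 22.2 and 22.4 CPM in controls, 16, 11.4 and 12 at day 2 and 17.5, 13.8 and 14.1 at day 6 (day 2 change -0.64 ± 0.18, adjusted p = 0.0163). Grm7 stood at 61.6, 55.2 and 56.6 CPM in controls, 51, 38.4 and 47.1 at day 2 and 55.9, 50.4 and 55.3 at day 6 (-0.34 ± 0.11, adjusted p = 0.0345). In both, each day 2 library was below each control. Grm5, which raises intracellular calcium through phospholipase C, was not called at either time. It stood at 244, 208 and 229.9 CPM in controls, 279, 154 and 216 at day 2 and 189, 177 and 161 at day 6: day 2 spanned a wider range than the controls, and all day 6 libraries were below the controls (-0.37 ± 0.17, adjusted p = 0.213). Grm3, a receptor found on astrocytes as well as neurons, and Grm4 were not called either (day 2 changes -0.11 ± 0.12 and -0.37 ± 0.32). Grm2 was not analysed here.

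GABA-A subunits were called lower at day 2 in 5 of 13 tested genes, and all 13 estimates were negative (median -0.55). Among all 18151 genes tested, 9.99% were called lower at day 2, and 9066 had negative estimates. Gabra3 stood at 149.8, 183 and 192 CPM in controls, 157, 121 and 105 at day 2 and 135, 127 and 141 at day 6. It was called at day 2 although day 2 replicate 1 exceeded control replicate 1 (-0.45 ± 0.14, adjusted p = 0.0254). Gabra4 changed by -0.45 ± 0.14 (adjusted p = 0.0307).

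Gabrb2 and Gabra5 were the GABA-A subunits called at day 6. Gabrb2, a beta subunit of the commonest synaptic receptors, stood at 122, 109 and 163 CPM in controls, 102, 56.6 and 89.4 at day 2 and 68.6, 45.4 and 61.2 at day 6. No day 6 or day 2 library reached the lowest control, and the change was -1.17 ± 0.25 at day 6 (adjusted p = 0.0171) and -0.67 ± 0.24 at day 2, where it missed the threshold (adjusted p = 0.0806) but passed it with DESeq2, limma voom and a replicate block (0.0089, 0.0328 and 0.00142). Gabra5, an extrasynaptic alpha subunit most abundant in hippocampus, stood at 55.8, 52.1 and 35.6 CPM in controls, 40.9, 22.6 and 24.2 at day 2 and 26.3, 25.6 and 23.4 at day 6. It was called at both times (-0.71 ± 0.23, adjusted p = 0.0425, and -0.93 ± 0.23, adjusted p = 0.0264), with overlap at day 2 and none at day 6. Neither gene differed between day 6 and day 2 by the test (adjusted p = 0.234 and 0.603).

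Gabrd, the delta subunit of tonic, neurosteroid-sensitive receptors, stood at 48.5, 76.4 and 87.9 CPM in controls, 29.7, 39.6 and 56.5 at day 2 and 72.8, 60.1 and 70.2 at day 6. Day 2 replicate 3 exceeded control replicate 1, and the day 2 change missed the threshold (-0.76 ± 0.26, adjusted p = 0.0685). It passed without day 2 replicate 3 or control replicate 1 (0.0115 and 0.0106), with DESeq2 (0.00426), limma voom (0.031) and a replicate block (0.0108). Gabra2, Gabrb1, Gabrg1, Gabrg3 and Gabrq were not called by edgeR, with day 2 changes from -0.98 (Gabrq, 0.715 ± 0.158 CPM in controls) to -0.15 (Gabrb1). Other tools called some of them lower: Gabrg1 at day 2 with DESeq2 (0.0452), and Gabrg3 at day 2 with DESeq2 (0.0323) and limma voom (0.0421) and at day 6 with DESeq2 (0.03).

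GABA-B receptors need both subunits: Gabbr1 binds GABA and Gabbr2 couples to the G protein. Gabbr2 stood at 346, 371 and 424 CPM in controls, 274, 259 and 228 at day 2 and 362, 338 and 375 at day 6 (chromosome 4, 46662305 to 46991873). The day 2 libraries were below all others (-0.58 ± 0.10, adjusted p = 9.55e-04) and the day 6 libraries again within or near the control range (0.50 ± 0.10 against day 2, adjusted p = 0.00746). Gabbr1 stood at 692, 751 and 806 CPM in controls, 604, 619 and 641 at day 2 and 752, 647 and 706 at day 6. All its day 2 libraries were below the controls, with a change of -0.27 ± 0.09, just short of the threshold (adjusted p = 0.0503) and past it with RLE factors (0.0441), upper quartile factors (0.0427), a stricter filter (0.0471), DESeq2 (0.0149), limma voom (0.0404) or without control replicate 1 (0.0382).

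Between day 2 and day 6, 6 of the 38 genes were higher at day 6, namely Grin2c, Gabbr2, Gria3, Grik5, Grin1 and Gria4, and none was lower. Of all genes tested, 11.6% were called in this comparison, 5.30% higher and 6.26% lower. At an unadjusted p below 0.05, 13 were higher and 4 lower. DESeq2 called 8 higher and Gria1 lower, and limma voom called 6 higher and none lower. In 13 genes all day 6 libraries lay above all day 2 libraries, which held for 13.9% of all genes tested, and in 2 they lay below, which held for 16.6%.

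Promoters were looked up for the 6 genes called lower at day 2 and higher at day 6 than at day 2. Both calls use the same 3 day 2 libraries. A RefSeq entry of build GRCm38.p6 was found for 29 of the 44 members and for 5 of these 6 (not for Gria3). Each window runs from 250 bases before the start used by its entry to 50 after it. That start can differ from the gene positions given above, as it does for Gabbr2. Of these windows 4 are printed, 5′ to 3′, with capitals on GC boxes (GGGCGG) and C-rich boxes (CCCCTCCC), on either strand and with overlaps kept.
Grin2c (chr11:115267194-115267493, minus strand): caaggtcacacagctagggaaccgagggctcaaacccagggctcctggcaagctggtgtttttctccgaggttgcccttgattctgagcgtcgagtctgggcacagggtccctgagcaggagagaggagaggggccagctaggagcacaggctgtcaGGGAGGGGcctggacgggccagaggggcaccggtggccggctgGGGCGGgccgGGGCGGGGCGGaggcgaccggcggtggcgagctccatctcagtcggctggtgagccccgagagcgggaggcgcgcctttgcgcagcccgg
Gabbr2 (chr4:46991665-46991964, minus strand): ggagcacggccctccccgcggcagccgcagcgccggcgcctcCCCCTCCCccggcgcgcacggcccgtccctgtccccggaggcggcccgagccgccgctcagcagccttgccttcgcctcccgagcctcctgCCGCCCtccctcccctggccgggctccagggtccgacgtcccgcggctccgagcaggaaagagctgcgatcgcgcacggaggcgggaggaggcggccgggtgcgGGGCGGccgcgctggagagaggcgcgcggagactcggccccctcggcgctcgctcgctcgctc
Grin1 (chr2:25319138-25319437, minus strand): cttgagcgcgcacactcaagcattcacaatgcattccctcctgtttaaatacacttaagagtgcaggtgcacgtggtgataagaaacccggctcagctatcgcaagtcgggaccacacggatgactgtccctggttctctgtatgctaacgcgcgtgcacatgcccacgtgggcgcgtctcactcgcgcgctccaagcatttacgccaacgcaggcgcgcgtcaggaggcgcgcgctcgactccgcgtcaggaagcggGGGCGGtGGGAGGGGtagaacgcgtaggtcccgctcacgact
Gria4 (chr9:4796185-4796484, minus strand): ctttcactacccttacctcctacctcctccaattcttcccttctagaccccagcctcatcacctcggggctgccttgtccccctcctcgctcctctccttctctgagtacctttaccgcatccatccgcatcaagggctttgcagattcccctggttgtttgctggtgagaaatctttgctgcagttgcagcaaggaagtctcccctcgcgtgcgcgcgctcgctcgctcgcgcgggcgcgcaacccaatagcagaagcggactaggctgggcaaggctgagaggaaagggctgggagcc
The Grin2c window holds 3 GC boxes and 1 C-rich box, that of Gabbr2 2 and 1, that of Grin1 1 and 1, and that of Grik5, not printed, 2 and 6, whereas the Gria4 window holds neither. Over the 36 windows of members, 17 hold a GC box and 14 a C-rich box. Over all 32851 promoter windows the shares are 35.7% and 12.2%. These windows are rich in G and C, with 80.3% in Gabbr2 and 59.7% in Gria4 against a median of 52.7% over all windows. The cAMP response element (TGACGTCA, in 1.79% of all windows) and the left half-site of the RE1 element bound by REST (TTCAGCAC, in 1.17%) were in none of the 36. The shorter right half-site of that element (GGACAG) was in 12 of the 36 and in 22.2% of all windows. The printed Grin1 and Gabbr2 windows hold it. The matches are a description of letters in these windows.

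Ratios of a pair of subunits within a library do not depend on its scaling. Of 12 ratios in 3 comparisons, none could pass, because 3 libraries against 3 allow no exact permutation p below 0.1 and the smallest adjusted p over the 36 tests was 0.3. On the log2 scale, the ratio of Gabbr2 to Gabbr1 ranged from -1.02 to -0.93 in controls. It was lowest in the day 2 libraries (-1.14, -1.25 and -1.49), and the day 6 libraries had -1.05, -0.94 and -0.91. The ratio of Gria1 to Gria2 was -1.12, -1.43 and -1.77 in controls, -1.20, -0.96 and -1.25 at day 2 and -1.53, -1.74 and -1.50 at day 6, so that day 6 lay below day 2 and both overlapped the controls. For Grin2a to Grin2b, the pair used to follow receptor maturation, it was -0.77, -0.22 and -0.25 in controls, -0.70, -0.82 and -0.57 at day 2 and -0.49, -0.48 and -0.55 at day 6. Control replicate 1 fell among the day 2 libraries there.

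**Figure D3:**
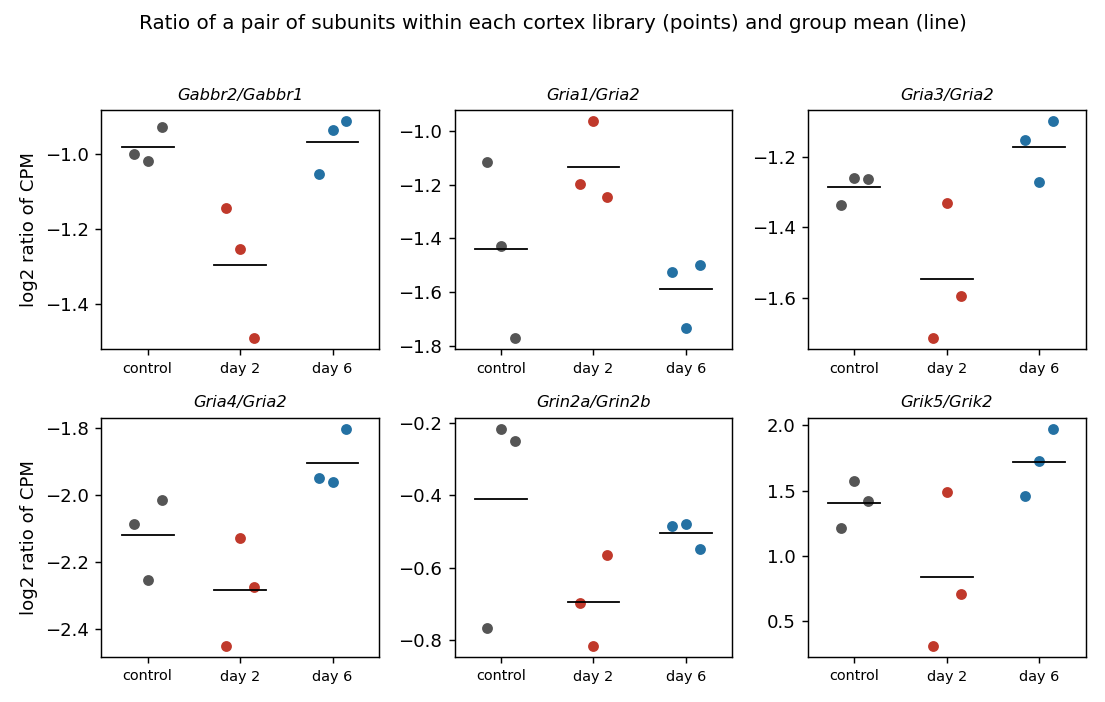
Log2 ratio of the CPM of 2 subunits (y axis, not starting at 0) within each of the 9 cortex libraries (points), with group means (lines). In Gabbr2/Gabbr1 the 3 day 2 libraries lie below all others, and the controls spread widely in Gria1/Gria2 and Grin2a/Grin2b.

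Other genes of these synapses are given from lists by role. Of all genes tested, 9.99% were lower and 14.7% higher at day 2, and 2.39% lower and 7.93% higher at day 6. From day 2 to day 6, 5.30% of all genes tested were higher and 6.26% lower. Postsynaptic scaffold proteins of excitatory synapses were lower in 16 and higher in 1 of 22 genes at day 2 (median -0.52), in none at day 6 (edgeR, DESeq2 and limma voom; 2 lower and 0 higher at an unadjusted p below 0.05 in edgeR), and 12 of 22 were higher at day 6 than at day 2. Examples at day 2 are Dlgap2 (-0.72 ± 0.10), Dlgap1 (-0.64 ± 0.11) and Dlg4, which encodes the scaffold PSD-95 (-0.54 ± 0.09). From day 2 to day 6 Shank1 rose by 0.79 ± 0.14, Dlgap2 by 0.58 ± 0.10 and Dlgap4 by 0.52 ± 0.10. The scaffold gene that rose at day 2 was Homer3 (1.00 ± 0.28). AMPA receptor auxiliary genes were lower in 10 and higher in 1 of 20 at day 2, and lower in 1 at day 6, Cnih2 (-0.52 ± 0.13). Cacng3, which carries AMPA receptors to the synapse, went from 116 ± 9.88 to 62.6 ± 4.57 and 112 ± 11.7 CPM (day 2 adjusted p = 4.86e-05). Its relative Cacng5 went the other way, with 7.96, 7.25 and 4.12 CPM in controls, 28, 50.5 and 38.4 at day 2 and 6.75, 7.78 and 9.29 at day 6 (day 2 change 2.59 ± 0.27, adjusted p = 4.04e-05). The pentraxin Nptx2, which clusters AMPA receptors, changed by -1.12 ± 0.15 at day 2, and its receptor Nptxr rose by 1.13 ± 0.15 from day 2 to day 6. In that last comparison 6 genes of the list were higher and 2, Cacng5 and Shisa6, lower.

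Auxiliary genes of kainate, delta and GABA-B receptors were lower in 2 and higher in 2 of 12 at day 2. These few calls stand beside 9.99% lower and 14.7% higher among all genes tested. Among the GABA-B auxiliary subunits, Kctd12 (0.60 ± 0.13) and Kctd12b (0.84 ± 0.20) rose, Kctd16 changed by -0.89 ± 0.24 and Kctd8 was not called. Neto1, an auxiliary subunit of kainate receptors, was the gene of this list that edgeR called at day 6 (-0.88 ± 0.18, adjusted p = 0.00776), where DESeq2 called 1 lower and 1 higher and limma voom 1 lower. Genes of GABA-A receptor anchoring and assembly were lower in 7 and higher in 2 of 14 at day 2, with Gabarapl1 (-0.48 ± 0.10) and Plcl2 (-0.59 ± 0.13) among those lower and Gabarap (0.45 ± 0.11) and Rdx (0.39 ± 0.08) higher. At day 6 edgeR and limma voom called none of them and DESeq2 called 1 lower, with 4 lower and 0 higher at an unadjusted p below 0.05 in edgeR. From day 2 to day 6 Plcl2 (0.66 ± 0.13) and Nlgn2 (0.37 ± 0.11) rose and Rdx changed by -0.40 ± 0.08. In glutamate transport and metabolism 6 of 13 were lower and 1 higher at day 2. Slc1a2, the main glutamate transporter of astrocytes, went from 3838 ± 219.7 to 2407 ± 349 and 3784 ± 80.0 CPM (day 2 adjusted p = 6.21e-04), Slc17a7, a vesicular glutamate transporter, changed by -0.56 ± 0.11 at day 2, and the cystine-glutamate exchanger Slc7a11 rose by 0.99 ± 0.21. At day 6 edgeR called the vesicular transporter Slc17a6 (-0.58 ± 0.15), DESeq2 also called 1 gene of the list lower, and limma voom called none. From day 2 to day 6, 3 of the 13 were higher and 2, Slc7a11 and Slc17a6, lower. In GABA synthesis and transport 4 of 11 were lower at day 2, among them Slc12a5, the chloride exporter on which inhibition by GABA depends (-0.59 ± 0.09, adjusted p = 4.83e-04), and the synthesising enzyme Gad1 (-0.73 ± 0.17). None of these 11 was called at day 6 by edgeR, DESeq2 or limma voom (1 lower and 0 higher at an unadjusted p below 0.05 in edgeR), and Slc12a5 was among 2 that were higher at day 6 than at day 2 (0.53 ± 0.09).

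The receptor genes moved beside markers of neurons, and in some libraries beside markers of other regions. The summed level of the 44 members was 6493, 6750.1 and 7276 CPM in controls, 5762, 4503 and 5178 at day 2 and 5907, 5474 and 5669.8 at day 6, a mean of 75.3% and 83.1% of control. The 13 pan-neuronal markers summed to 8893, 10624 and 11310.4 CPM in controls, 7737, 6311 and 7524 at day 2 and 8979, 8269 and 8369 at day 6, or 70.0% and 83.1% of control, with 9 of 13 called lower at day 2 and 2 at day 6. Per 1000 CPM of these markers, the members summed to 669.6 ± 52.5 CPM in controls, 716 ± 28.3 at day 2 and 666 ± 10.3 at day 6 (SD, n = 3), with overlap between day 2 and controls. By family the AMPA sum on that scale was 165 ± 19.9, 178 ± 18.1 and 154 ± 1.81 CPM, and the NMDA sum was 102 ± 8.21, 103 ± 7.55 and 105 ± 4.43 CPM. The kainate sum was 39.8 ± 5.65, 47.1 ± 3.84 and 41.3 ± 1.58 CPM, and the GABA-A sum was 203 ± 10.7, 203 ± 17.7 and 193 ± 3.03 CPM. The metabotropic glutamate sum was 42.1 ± 7.04, 53.9 ± 5.61 and 40.4 ± 0.994 CPM, with each day 6 library below each day 2 library. That order also held for the AMPA sum, the kainate sum and the sum of all members. It did not hold for the NMDA, GABA-A and GABA-B sums. The GABA-B sum was 110.3 ± 5.75, 123 ± 14.3 and 124 ± 4.99 CPM, with each day 6 library above each control. These scaled sums were not tested. Markers of cortical excitatory neurons were at 60.1% and 99.1% of control at days 2 and 6 (4 of 8 lower at day 2), and those of inhibitory neurons at 54.7% and 85.6% (7 of 10 lower at day 2). Of all genes tested, 9.99% were lower at day 2 and 2.39% at day 6. Most of the excitatory sum was Nrgn, with means of 1592, 873 and 1583 CPM in controls, at day 2 and at day 6. At day 6, 4 of the 8 excitatory markers had negative estimates, so that sum covers changes in both directions. At day 6 edgeR called none of either list (1 and 2 lower at an unadjusted p below 0.05) and DESeq2 called 1 and 2 lower. Among the 13 pan-neuronal markers, 3 were called higher at day 6 than at day 2, beside 5.30% of all genes tested. Another 3, Map2, Nefm and Stmn2, had negative estimates in that comparison. The part of neuron content in the changes of single subunits was not tested.

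Markers of other cell types moved beside these changes. The astrocyte marker sum stood at 275% and 173% of control, and most of this rise was Gfap, the filament gene of reactive astrocytes, with means of 204, 2982 and 1375 CPM in controls, at day 2 and at day 6. The other 9 astrocyte markers together, split off after their values were seen, stood at 116% and 105%. Summed microglia and macrophage markers stood at 239% and 355%, and endothelial markers at 184% and 149.7%. Gene by gene, 5 of 10 astrocyte markers were higher and 2 lower at day 2, as were 8 and 1 of 10 microglia and macrophage markers and 6 and 0 of 7 endothelial markers. Of all genes tested, 14.7% were higher and 9.99% lower at day 2. Oligodendrocyte markers were at 87.7% and 75.4%, with none of 8 called by edgeR at day 6 (1 lower at an unadjusted p below 0.05, none by DESeq2), and precursor markers at 99.4% and 132%. Striatal markers differed within groups: they summed to 170.4, 423 and 582 CPM in controls, 173, 126 and 1066 at day 2 and 163, 125 and 136 at day 6. Hippocampal markers summed to 73.3, 44.1 and 28.1 CPM in controls, 66.2, 56.8 and 40.7 at day 2 and 24.8, 29.7 and 29.3 at day 6, so that day 6 and control replicate 3 were low in them. In controls Gabra5 and Gria1, like the hippocampal markers, were highest in replicate 1 and lowest in replicate 3, and both were lower at day 6. Grin2c had the same order in controls and stood at 100.4% of control at day 6. Of the other genes called lower at day 6, Gabrb2 was highest in control replicate 3 and Grik4 in control replicate 2. Gabrd, like the striatal markers, was lowest in control replicate 1 and highest in control replicate 3. The pan-neuronal marker sum, the sum of all members, Grin1 and Grin2a had that order too, so it is not particular to the striatal markers. Choroid plexus markers summed to 34.5, 33.3 and 20.9 CPM in controls, 8.03, 215 and 10.6 at day 2 and 2.37, 3.71 and 3.31 at day 6, with day 2 replicate 2 apart. Markers of thalamus and habenula stood at 34.2, 33.8 and 28.5 CPM in controls, 50.8, 111 and 57.5 at day 2 and 47.6, 75.4 and 66.4 at day 6. Those of cerebellum stood at 66.3, 50.7 and 55.3 CPM in controls, 82.2, 102 and 69.9 at day 2 and 67.8, 82.2 and 78.1 at day 6. The part of the dissected region in these changes was not tested.

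**Figure D4:**
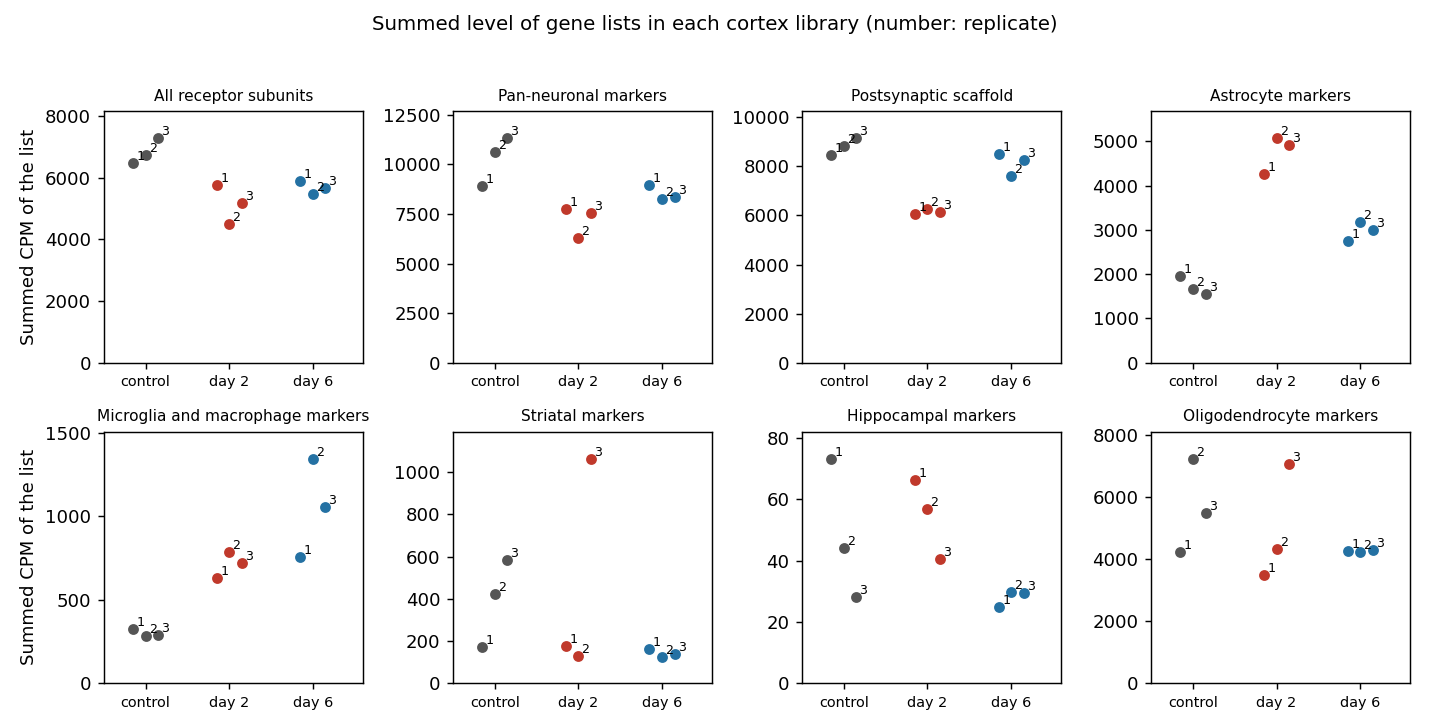
Summed CPM (y axis, from 0) of the 44 receptor subunit genes and of marker and scaffold lists in each of the 9 cortex libraries, numbered by replicate. Receptor subunits, neuronal markers and scaffold genes have their lowest mean at day 2, and the striatal markers of day 2 replicate 3 stand at 1066 CPM against 125 to 582 in the other libraries.

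Of the 16 calls at day 2, 8 held under every alternative tried, among them Gria3, Gria4, Grin1, Grin2a, Grin2c, Grik5 and Gabbr2. Without the control and the day 2 library highest in striatal markers, replicate 3 of each group, 11 subunits were lower, 9 of them among the 16. Gabra4 (adjusted p = 0.0557), Grin2b (0.106), Grm7 (0.118), Grm8 (0.178) and Gabra3 (0.288) were among those lost, and Gabrd (0.0211) and Gabrg3 (0.0193) were gained. Leaving out control replicate 2 reduced the 16 to 10. Grm8 was lost without control replicate 2 or 3 or day 2 replicate 2 or 3 (0.0612 to 0.0715), and Gabra3 likewise (0.0893 to 0.104). Gabra4 was lost without control replicate 2 or 3 or day 2 replicate 1 or 2 (0.0582 to 0.147), Grm7 without any control, day 2 replicate 2 or 3 or day 6 replicate 3 (0.0549 to 0.149), and Gabra5 without control replicate 1 or 2, day 2 replicate 2 or 3 or any day 6 library (0.0628 to 0.164).

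Each of the 4 calls at day 6 was lost when one or another single library was left out. Gabrb2 was lost without control replicate 3 or day 6 replicate 2 or 3 (adjusted p = 0.0519 to 0.0619), Grik4 without control replicate 2 or 3 or day 6 replicate 2 or 3 (0.0603 to 0.116), Gabra5 without control replicate 1 or 2 or any day 6 library (0.0613 to 0.105) and Gria1 without control replicate 1 or 2 or day 6 replicate 2 or 3 (0.0946 to 0.144). Grik4 (0.0589) and Gabrb2 (0.0615) were also lost without the libraries highest in striatal markers. No subunit was called by edgeR without day 6 replicate 2 or without day 6 replicate 3, where 6 and 7 were lower at an unadjusted p below 0.05. Of the 6 genes higher at day 6 than at day 2, Grin2c and Gabbr2 were called under every alternative. The calls of Gria3, Grik5, Grin1 and Gria4 were lost without day 6 replicate 1 or without day 6 replicate 3 (0.0664 to 0.135), among others.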

How the data were processed

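The 9 cortex libraries (3 each of controls, day 2 and day 6) were analysed. The labels' protocols describe TRIzol extraction, DNase treatment, poly(A) selection and NEBNext libraries read as paired ends on an Illumina instrument. Per the submitters' processing notes, HISAT2 2.1.0 and the mm10 build were used, and no label names the counting program, its annotation or its use of strand. The values deposited by the authors are counts, raw reads per gene without normalization. The table has 26783 lines for 25918 names, and 865 surplus identical lines were removed.

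Counts were fitted in R 4.3.3 with edgeR 4.0.16 (filterByExpr by group, TMM, estimateDisp, robust quasi-likelihood fit, prior count 0.125) over the 9 libraries. All 3 comparisons were two-sided, with Benjamini-Hochberg adjustment over 18151 genes and a threshold of 0.05, and the procedure was tested on simulated data. Of 19 alternatives, 18 changed the scaling (RLE or upper quartile factors), the filter (none, or 1 CPM in 3 libraries), the tool (DESeq2 1.42.0 or limma 3.58.1 voom) and the design (replicate block, or only the groups compared), used library sizes that omit the top 20 genes, or omitted each library in turn. The other, omission of the control and the day 2 library highest in striatal markers, was chosen after seeing the data. Exon lengths and positions are from GENCODE M21 (mm10).

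The members and lists (6 of pathway genes, 13 of markers) were chosen with earlier results of these data known. Values by library are given for up to 3 called members per family and comparison with the smallest adjusted p and for the most abundant member of a family per length. Of the pathway lists, up to 3 called genes per comparison are named by the same order. Gabrd by library, and Homer3, Gabarap and Shisa6, were named after their values were seen. Results for some genes are not reported here, while counts over families and lists include them.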

Additional observations from a re-analysis of the deposited data

Results flagged for a closer look

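For 6 subunit genes the response at day 6 differed from the response at day 2 by the test of day 6 against day 2 (edgeR, adjusted over all genes); both responses use the same 3 controls. The log2 differences, day 6 minus day 2, were 0.96 for Grin2c, 0.50 for Gabbr2, 0.41 for Grin1, 0.40 for Grik5, 0.39 for Gria4 and 0.38 for Gria3, each higher at day 6 in all 3 libraries than in any day 2 library. All 6 were lower than control at day 2, and none was called against control at day 6. Day 6 against day 2, 5.30% of all genes tested were called higher and 6.26% lower. Grin2c and Gabbr2 were called under every alternative, while the other 4 calls were lost without some single libraries. The day 2 call and the test of day 6 against day 2 share the 3 day 2 libraries. Low values in those libraries favour both. Summed pan-neuronal markers moved in the same order, at 70.0% of control at day 2 and 83.1% at day 6. Gene by gene, 3 of these 13 markers were called higher at day 6 than at day 2, and 3 had negative estimates. The part of these markers in the differences was not tested.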

How the results depend on the processing

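No called subunit changed direction under any of the 19 alternatives, and no scaling moved the median log2 change of all genes by more than 0.1. Each scaling assumes that most genes are unchanged. It keeps that median small by design, so the median cannot show a shift shared by most genes. With 1 library left out, 10 to 20 subunits were called at day 2, 0 to 9 at day 6 and 2 to 9 between the 2 times. At day 6 without a filter, 2 were called, with the compared groups alone 12, and without the libraries highest in striatal markers 2. For all genes, leaving out 1 library gave 1005 to 2198 calls at day 6 and 910 to 2329 between the 2 times, and omission of the libraries highest in striatal markers gave 2427 at day 2, 1103 at day 6 and 1207 between the 2 times. The cause was not tested, although these last fits hold fewer samples.

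Replicate numbers are shared across groups, but no label says what they mark. Deviations of libraries with the same number correlated at -0.041 to 0.233 over genes, and not every library correlated best with its own number, so the numbers were not taken as pairs. With a replicate block 11 subunits were called between day 2 and day 6 (4 lower and 7 higher), against 6 without, and 18 at day 2 and 6 at day 6.

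With 3 libraries a group, of 13005050 to 27654269 counts, the filter left 6 subunits untested. The size of change that was called differed by gene. At day 2 Gabbr1, with -0.27 ± 0.09, lay just short of the threshold. Larger day 2 changes with larger standard errors also missed it, such as Gabrd (-0.76 ± 0.26) and Gabrb2 (-0.67 ± 0.24).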
